A study of Homo sapiens with 8 samples.

Results

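Coding-gene promoter regions with H3K27ac peaks only in MP2_HDAC1_OE numbered 2076, of 10288 merged H3K27ac regions at coding genes and 18678 merged regions in all. Peaks of MP2_HDAC1_OE and MP2_NTC with 1 bp or more in common were joined into regions, and a region was kept when all its peaks came from MP2_HDAC1_OE and it overlapped a window from 2 kb outside to 1 kb inside an end of a protein-coding gene of GRCh38. These regions were chosen by the presence and absence of peaks in the lists described here, so their number and their classes are a description and no test was made on them. MP2_HDAC1_OE-only regions made up 20.2% of the regions at coding genes and 28.6% of all merged regions, and a further 3261 lay away from coding-gene ends. The mirror class, regions at coding genes with peaks only in MP2_NTC, numbered 1747, and 6465 regions were shared.

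H3K27ac ChIP-sequencing was carried out on 2 samples each of MP2_HDAC1_OE and MP2_NTC, with 2 samples without the H3K27ac antibody per line. Both are stable lines of MIA PaCa-2, epithelial cells of a human pancreatic carcinoma, that carry the CRISPR activation machinery delivered by lentivirus. The single guide RNA targets *HDAC1* in MP2_HDAC1_OE and is a non-targeting one in MP2_NTC, so the activation machinery, the culture medium and the parental line are common to both groups. The authors deposited 1 list of reproducible peaks per line over both samples, with 25045 peaks for MP2_HDAC1_OE and 22569 for MP2_NTC. One list stands for each line, so no test across cultures was possible, and the effect of *HDAC1* and any drift between the stable lines cannot be told apart. The depth of the samples is unknown, and a peak below the threshold of MP2_NTC and one that was absent there cannot be told apart. A mark carried by more cells and a mark carried more often per cell cannot be told apart either. The lists gave no check of the *HDAC1* label, since H3K27ac peaks do not measure its RNA or protein. Ranks in lists of unequal length, here and further on, are also not strictly like for like. The shared region of *HDAC1* held an MP2_HDAC1_OE peak above 93.9% of the peaks of its list and an MP2_NTC peak above 40.4% of its own, and *HDAC1* had 2 further regions only in MP2_NTC and none only in MP2_HDAC1_OE. Of 12 markers of pancreatic carcinoma epithelium, 7 had a region (*KRT8*, *KRT18*, *KRT19*, *MUC1*, *S100A6*, *SOX9* and *VIM*), while *CDH1*, *EPCAM*, *KRT7* and *CFTR* were among those with none in either list. *VIM* does not mark epithelium alone, and it is also in the list of epithelial-mesenchymal transition genes used further on. Of the markers of other cell types, 1 of 10 for fibroblasts (*COL1A2*), 3 of 10 for leukocytes (*CD14*, *CD68* and *CORO1A*) and 1 of 8 for endothelium (*CDH5*) had a region. Of these 5 genes, *COL1A2* alone had a region only in MP2_HDAC1_OE. In the other direction, 2 of the leukocyte markers had MP2_NTC-only regions and no MP2_HDAC1_OE peak.

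Acetylation of lysine 27 of histone H3 marks the nucleosomes beside active promoters and active enhancers, and it is removed by histone deacetylases such as HDAC1, the catalytic subunit of several corepressor complexes. At a promoter in use the start site itself is usually depleted of nucleosomes, and the acetylated nucleosomes lie on either side of it. A promoter window can therefore differ between cells by the whole mark or by an extension of the mark on a flank.

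Genes with an MP2_HDAC1_OE-only region were split by what else their windows held. A gained promoter had no MP2_NTC peak in either window, a gained flank also had a shared region, and a gene with MP2_HDAC1_OE-only and MP2_NTC-only regions but no shared region was called exchanged. The names describe peak lists and do not imply a tested change. The start regions of 6 gained promoter genes are given because these genes led the list by signal or led the gene groups described further on. The 300 bases come from RefSeq (GRCh38.p14), from 250 before to 50 after the start, read along the gene, and capitals mark GGGCGG or CCGCCC (the GC box), CCAAT or ATTGG (the CCAAT box), TGANTCA (the AP-1 motif) and GAAA, any 2 bases and GAAA, or its complement (the interferon-stimulated element). TATAAA and its complement were also searched and were found in none of the 6. *MRPL2* and *CUL7* also led by signal.
*ZNF184*, a zinc finger factor, chr6:27473056-27473355, minus strand: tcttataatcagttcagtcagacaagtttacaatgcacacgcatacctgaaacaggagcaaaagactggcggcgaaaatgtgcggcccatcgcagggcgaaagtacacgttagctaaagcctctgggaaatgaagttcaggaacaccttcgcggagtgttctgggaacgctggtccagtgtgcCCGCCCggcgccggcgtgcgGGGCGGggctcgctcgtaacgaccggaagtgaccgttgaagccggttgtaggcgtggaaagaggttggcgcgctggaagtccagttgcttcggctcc
*FOXC1*, a forkhead factor, chr6:1609665-1609964, plus strand: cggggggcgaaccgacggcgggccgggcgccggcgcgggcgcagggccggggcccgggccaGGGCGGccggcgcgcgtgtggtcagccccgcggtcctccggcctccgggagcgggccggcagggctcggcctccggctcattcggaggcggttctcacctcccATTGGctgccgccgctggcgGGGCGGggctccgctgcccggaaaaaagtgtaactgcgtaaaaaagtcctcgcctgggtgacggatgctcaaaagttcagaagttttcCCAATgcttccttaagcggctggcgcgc
*IL13RA1*, a subunit of the interleukin 13 receptor, chrX:118727356-118727655, plus strand: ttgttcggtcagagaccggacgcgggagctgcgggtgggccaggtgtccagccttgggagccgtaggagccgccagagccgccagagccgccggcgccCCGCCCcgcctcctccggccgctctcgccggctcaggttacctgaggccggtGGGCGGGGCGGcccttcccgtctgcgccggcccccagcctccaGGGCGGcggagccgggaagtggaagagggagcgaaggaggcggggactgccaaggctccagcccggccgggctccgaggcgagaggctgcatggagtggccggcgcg
*EFNA4*, an ephrin, chr1:155063490-155063789, plus strand: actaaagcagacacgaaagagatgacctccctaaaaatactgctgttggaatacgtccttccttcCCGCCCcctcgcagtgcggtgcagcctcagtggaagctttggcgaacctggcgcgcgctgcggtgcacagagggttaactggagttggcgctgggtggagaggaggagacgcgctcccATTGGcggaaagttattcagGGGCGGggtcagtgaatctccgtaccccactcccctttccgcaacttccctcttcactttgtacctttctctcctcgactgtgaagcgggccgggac
*IFIT1*, an interferon-induced RNA-binding protein, chr10:89392373-89392672, plus strand: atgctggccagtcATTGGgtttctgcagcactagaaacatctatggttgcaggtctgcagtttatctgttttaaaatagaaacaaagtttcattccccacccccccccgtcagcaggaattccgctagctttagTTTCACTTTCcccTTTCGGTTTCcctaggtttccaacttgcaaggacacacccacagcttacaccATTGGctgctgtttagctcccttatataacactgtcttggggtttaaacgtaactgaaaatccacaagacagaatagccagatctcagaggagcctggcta
*PLAUR*, the urokinase receptor, chr19:43670120-43670419, minus strand: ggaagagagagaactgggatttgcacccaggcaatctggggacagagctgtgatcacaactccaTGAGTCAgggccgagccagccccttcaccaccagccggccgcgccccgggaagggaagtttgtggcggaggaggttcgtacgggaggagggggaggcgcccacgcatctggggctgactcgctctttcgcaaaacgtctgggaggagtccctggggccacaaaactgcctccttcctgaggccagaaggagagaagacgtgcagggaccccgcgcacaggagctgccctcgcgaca

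The 6 starts differed in composition. *FOXC1* held 40 CG dinucleotides in the 300 bases and *IFIT1* held 4, with GC shares of 72.7% and 46.0%. *IL13RA1* had 4 matches to the GC box, of which 2 overlap by 1 base, *ZNF184*, *FOXC1* and *EFNA4* had 2 each, and *IFIT1* and *PLAUR* had none. The 2 matches to the interferon-stimulated element were both in *IFIT1*, and *PLAUR* had the only match to TGANTCA. A match is a description of the letters and not a site of binding. The MP2_HDAC1_OE-only regions covered all 300 bases at *ZNF184*, *FOXC1* and *IFIT1* and 71 of them at *EFNA4*, while at *PLAUR* the region lay downstream of the printed bases. At *IL13RA1* the stronger of its 2 regions also lay just downstream, and the weaker one covered most of the printed bases.

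Of 20033 coding genes, 9722 had a merged region of either line in a window, and 2432 of these had at least 1 MP2_HDAC1_OE-only region. Gained promoters were found at 1237 genes (12.7% of the genes with a region), gained flanks at 944 (9.71%) and exchanged regions at 251 (2.58%). In the opposite direction, 1015 genes (10.4%) had MP2_NTC-only regions and no MP2_HDAC1_OE peak, and 815 (8.38%) had both shared and MP2_NTC-only regions. Genes are not independent here, because neighbouring genes share regions. Of the 2076 regions, 1540 counted for 1 gene, 501 for 2, 28 for 3 and 5 for 4, and 2 regions at the common end of the protocadherin gamma cluster counted for 23 genes each. By region, 1050 (50.6%) belonged to gained promoters alone, 720 (34.7%) to gained flanks alone and 174 (8.38%) to exchanged genes alone, and the others touched genes of more than 1 class. Most genes had a single such region, with 1112 of the 1237 gained promoter genes (89.9%) and 855 of the 944 gained flank genes (90.6%).

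The MP2_HDAC1_OE-only regions lay in the middle of their list by signal, the authors' value of peak strength. The strongest peak of a region had a median signal of 46.0, with quartiles of 37.5 and 56.7, and the median region stood above 49.2% of the peaks of MP2_HDAC1_OE. Shared regions at coding genes stood higher, with a median signal of 65.9 in MP2_HDAC1_OE and a median rank above 78.2% of the list, and the MP2_HDAC1_OE-only regions away from coding genes stood lower, above 36.9%. MP2_NTC-only regions at coding genes held a like place in their own list, with a median rank above 46.9% of the peaks. Among all regions at coding genes with an MP2_HDAC1_OE peak, the share without an MP2_NTC peak was 66.9% (95% Wilson interval 59.4 to 73.6, 111 of 166) in the lowest 10% of the list and 3.98% (3.16 to 4.99, 70 of 1761) in the highest 10%. It was lower in each bin of 10% than in the one before. The intervals cover counting error alone. The strongest regions were thus nearly all shared, and the 70 regions in the highest 10% are where the absence of a control peak stands beside the strongest MP2_HDAC1_OE signals.

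**Figure D1:**
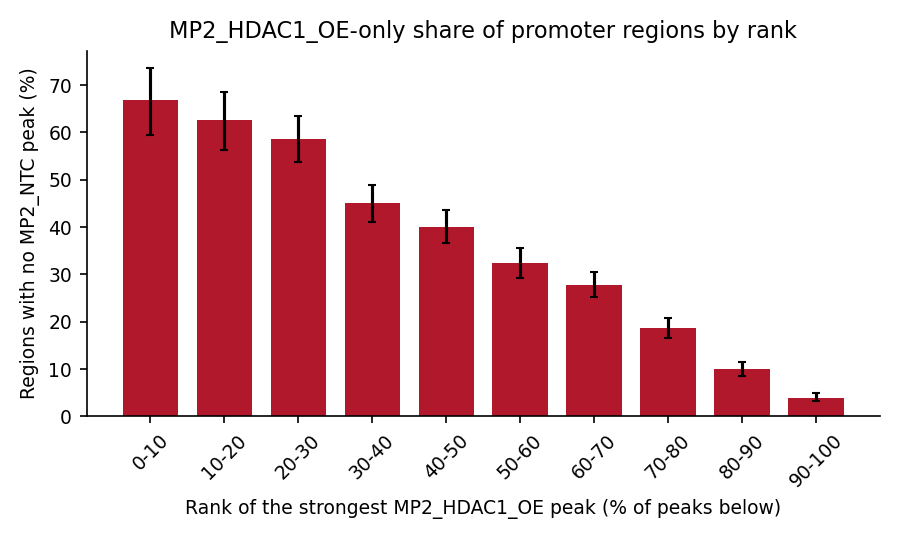
Bars give the share (in %) of regions at coding genes with an MP2_HDAC1_OE peak that had no MP2_NTC peak, by the rank of the strongest MP2_HDAC1_OE peak within its list in bins of 10%, and lines are 95% Wilson intervals. The share runs down from 66.9% in the lowest bin to 3.98% in the highest.

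Regions only in MP2_HDAC1_OE were also narrower than shared ones. The median width was 820 bp against 1048 bp, 913 of the 2076 (44.0%) were exactly 820 bp wide, the usual width of a peak in both lists, and 64.1% held 1 peak against 38.9% of shared regions counted by their MP2_HDAC1_OE peaks. The narrowest had 205 bp. The widest, at *ANKRD28*, which encodes a regulatory subunit of protein phosphatase 6, joined 7 peaks over 2492 bp, although its strongest peak had a signal of 29.4 and stood above only 20.7% of the list, so that it dropped out when the highest 75% of peaks were kept. Shared regions take their width from the peaks of both lines and the others from 1 line, so the widths are not like for like.

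The classes differed in how far the nearest MP2_NTC peak was. For the 1151 regions at gained promoter genes the median gap was 40523 bp, with quartiles of 15426 and 105729 bp, and 82.0% had no MP2_NTC peak within 10000 bp. At gained flank genes, 840 regions had a median gap of 453 bp, with quartiles of 141 and 1467 bp, and 53.0% lay within 500 bp of an MP2_NTC peak. The 218 regions at exchanged genes had a median gap of 370 bp. The rule fixes part of this contrast, since a gained promoter has no control peak within its windows, but not the distance beyond them. Only 22 regions at gained promoter genes (1.91%) had an MP2_NTC peak within 500 bp, among them that at *LDHA*, the lactate dehydrogenase A gene, with a gap of 406 bp that made it a shared gene when gaps of up to 500 bp were merged. Elsewhere in the gene, outside the windows, 192 of the 1237 gained promoter genes (15.5%) had an MP2_NTC peak and 1045 (84.5%) had none.

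**Figure D2:**
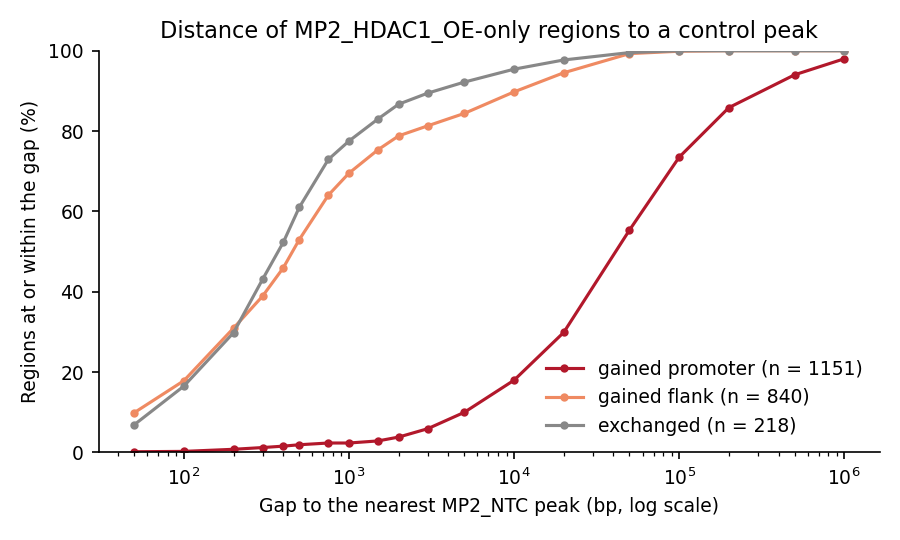
Lines give the share of MP2_HDAC1_OE-only regions (in %) with an MP2_NTC peak at or within the gap on the x axis (bp, log scale), for regions at gained promoter (n = 1151), gained flank (n = 840) and exchanged (n = 218) genes. The curves of gained flank and exchanged genes pass 50% by 500 bp, and that of gained promoter genes only beyond 10000 bp.

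At gained flank genes the shared region was usually the stronger one when the strongest of each kind was taken per gene. Strength here was the MP2_HDAC1_OE signal, so the shared region taken was not always the nearest. The gaps given here can therefore exceed those to the nearest shared region. The region only in MP2_HDAC1_OE had a median rank above 50.2% of the list and the shared region of the same gene one above 79.6%, and the shared region stood higher at 718 of 944 genes (76.1%). The median gap between them was 490 bp, and 478 genes (50.6%) had a gap of at most 500 bp. The upper quartile of the gap was 3875 bp. The shared regions themselves ranked alike in both lists, with medians above 79.6% and 79.4%, and 53.3% ranked higher in MP2_HDAC1_OE, beside 54.2% of all shared regions at coding genes. Merging across gaps of up to 500 bp turned 560 of the 944 gained flank genes into genes with shared regions alone, and gaps of up to 1000 bp turned 695, whereas 1211 (97.9%) and 1204 (97.3%) of the gained promoter genes kept their class.

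Strand was known for 1622 of the 2076 regions through the RefSeq start table. Of these, 1483 (91.4%, 95% Wilson interval 89.97 to 92.7) lay at a gene start and 139 (8.57%, 7.30 to 10.0) only at the other end of a gene. Shared regions lay at a start in 97.3% and MP2_NTC-only regions in 91.9%. By gene, 894 of 972 gained promoters with a known strand (92.0%) had the region at the start, against 621 of 795 gained flanks (78.1%), and 174 gained flanks (21.9%) rested on a region at the far end of the gene. Starts on opposite strands fell in the same region for 229 of 1561 regions only in MP2_HDAC1_OE (14.7%, 13.0 to 16.5), beside 16.3% of shared regions (15.3 to 17.3).

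Summits of gained promoter regions were placed around the start much as those of shared regions. The strongest summit lay a median of 168 bp downstream of the start at gained promoters and 147 bp at shared regions, upstream of it in 35.3% and 38.1%, and within 250 bp of it in 35.0% and 39.0%. The bin with the highest share was the first 250 bp downstream for each, with 27.6% and 29.9%, with fewer just upstream and more again between 500 and 250 bp upstream, at 14.9% and 15.4%. Gained flank summits were spread wider. Their median was 158 bp upstream, 51.4% lay upstream of the start, and 21.0% lay within 250 bp of it. Over all 2076 regions the summit was a median of 373 bp from the nearest gene end.

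**Figure D3:**
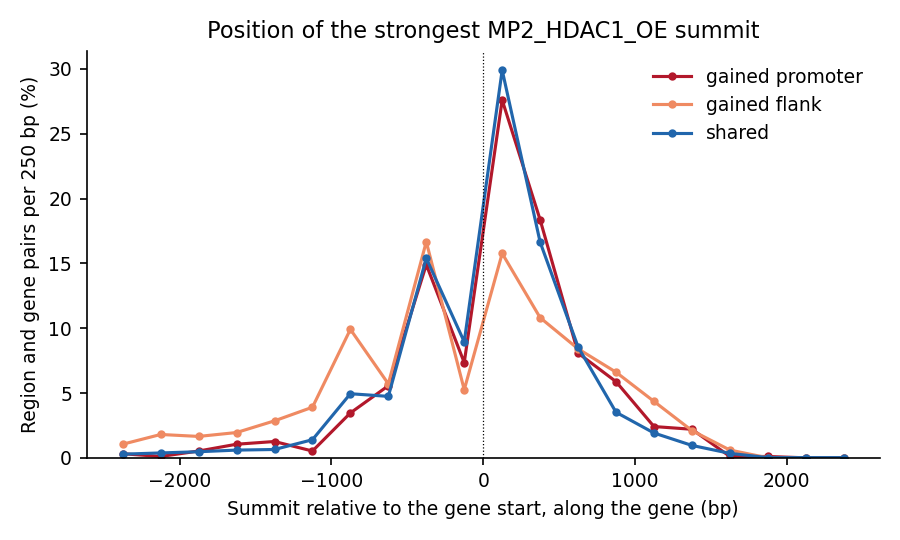
Lines give the share of region and gene pairs (in %) per 250 bp by the position of the strongest MP2_HDAC1_OE summit relative to the gene start, read along the gene (bp), for gained promoter, gained flank and shared regions at gene starts. Gained promoter and shared regions follow the same shape, with 27.6% and 29.9% in the first 250 bp downstream, and gained flanks have 15.8% there.

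The limits of the rule passed through regions that were nearly alike. Just inside, a region at *CCDC142* and *TTC31* adjoined an MP2_NTC peak with a gap of 0 bp, and one at *YIPF4* had a gap of 1 bp. Just outside, the region at *CACNG6* and *CACNG8* was shared by an overlap of 2 bp and that at *RNGTT* by 5 bp. In all 180 regions lay within 100 bp of a control peak, and 62 of the 6465 shared regions rested on an overlap of under 100 bp. At the window edge, a region reached the window of *ZNF787* by 2 bp and that of *AHNAK* by 6 bp, and regions near *CTBP2* and *NT5C* missed a window by 3 and 4 bp.

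The strongest gained promoter was shared by *MRPL2*, a subunit of the mitochondrial ribosome, and *CUL7*, a scaffold of a ubiquitin ligase. Its region (chr6:43053205-43053904) ranked above 98.5% of MP2_HDAC1_OE peaks at a signal of 116, with no MP2_NTC peak within 31094 bp. *ZNF184* followed with 107 (chr6:27472569-27473693), and its region covered the whole printed start. *LSM1*, an RNA decapping cofactor, and *BAG4*, a chaperone regulator, shared a region with a signal of 107 and an MP2_NTC peak 4116 bp away. *RRP15*, needed for making the large ribosomal subunit, had 102 (chr1:218284816-218285841), and the nearest MP2_NTC peak was 653376 bp away. *ATRN*, which encodes attractin, a transmembrane protein, stood above 96.1% of the list. *CLTC*, the clathrin heavy chain that coats endocytic vesicles, had 98.5 and was a gained promoter by 2 regions. *HSPH1*, a heat shock chaperone of the HSP110 family, had 96.9 in a region of only 385 bp. *FIGNL1*, an ATPase that acts in recombination, had 93.9, and no MP2_NTC peak lay within 2361337 bp. *RABEP2*, an effector of the early endosome GTPase RAB5, had 93.5, and *CCDC125*, a coiled-coil protein, had 93.2. Each of these genes, which were chosen by signal, stood above at least 94.4% of the list.

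Gained flanks were led by *TSEN15*, a subunit of the transfer RNA splicing endonuclease. Its region (chr1:184051207-184051669) ranked above 98.2% of the list at a signal of 112 and lay 23 bp from the shared region of the gene. *ANKHD1*, an ankyrin repeat protein that shares its start with the read-through gene *ANKHD1-EIF4EBP3*, had 101 and a gap of 316 bp. *ZNF131*, a zinc finger factor, had 100.4 at 78 bp from its shared region, and *COXFA4*, a factor of cytochrome c oxidase, had 100.4 at 111 bp. *H2AC13*, a replication-dependent histone H2A gene, had 98.0. *STRN4*, a striatin subunit of a phosphatase complex, had 97.0, and *WDR81*, an endosomal WD-repeat protein, had 96.3 at 43 bp. At *PIK3CA*, the catalytic subunit of phosphoinositide 3-kinase, a region with a signal of 92.3 lay 5 bp from the shared region. Most of these flanks thus sat close beside a region present in both lines. *H2AC13* and *STRN4* were 2148 and 28209 bp from theirs, with an MP2_NTC peak 611 and 55 bp away. The shared region of the gene ranked lower in MP2_HDAC1_OE than in MP2_NTC at *TSEN15* (above 60.1% against 89.9%), *ANKHD1* (64.9%, 93.4%), *ZNF131* (72.7%, 86.2%) and *WDR81* (65.0%, 99.4%). It ranked higher at *PIK3CA* (99.5%, 77.9%) and *STRN4* (72.6%, 49.2%), and alike at *COXFA4* (99.3%, 98.3%) and *H2AC13* (92.8%, 93.3%). Whether signal moved between neighbouring peaks was not tested.

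*NAA25*, the auxiliary subunit of an N-terminal acetyltransferase, held the most regions of any gene, 4, and covered 1918 bp. *AMBRA1*, a regulator of autophagy, had 3 on chromosome 11 (signal 80.0 for the strongest). *HOOK2*, a microtubule linker protein, and *JUNB*, an AP-1 subunit, counted the same 3 regions, which made the former a gained promoter (a gained flank in a window of 2 kb inside) and the latter a gained flank, and *UBE2M*, a NEDD8-conjugating enzyme, had 3 beside 3 shared regions. By covered length the gained promoters were led by *CRELD1*, an endoplasmic reticulum protein, with 3864 bp in 2 regions. *RFFL*, a ubiquitin ligase, followed with 2625 bp, *NOG*, the BMP antagonist noggin, with 2618 bp, *ANKRD28* with 2492 bp and *STIM1*, the calcium sensor of the endoplasmic reticulum, with 2479 bp. None of these 5 stood above 75% of the list by signal, the highest being *NOG* at 74.7%, so a long covered length did not go with a leading signal among them.

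Genes were also grouped by function into 34 lists, and each list was read beside the 12.7% gained promoters and 9.71% gained flanks over all coding genes with a region. No set test was made, and a share is of the genes of the list with a region in either line. The signal given for a gene is that of its strongest region, which was not always at the gene start. It lay nearest the far end at *PHF10* and *NDST1*, which stayed gained promoters at the gene start alone. The same held for the gained flanks *PCGF1*, *TAPBP*, *UBE2M*, *OTUD7B*, *TMSB4X*, *H3C4*, *JUNB* and *ADAM15* in position, besides others marked as such. Of 51 signal receptors with a region, 15 (29.4%, 95% Wilson interval 18.7 to 43.0) were gained promoters and 2 were gained flanks. In the other direction, 9 (17.6%) had MP2_NTC-only regions and no MP2_HDAC1_OE peak. The list was not limited to receptors of growth factors and cytokines. *IL13RA1* led with a signal of 69.2 in 2 regions, and no MP2_NTC peak lay within 380807 bp. *TNFRSF6B*, a decoy receptor, had 60.8 in a region near its far end. *MET*, the receptor of hepatocyte growth factor, had 49.7 in a region of 3 peaks (chr7:116671768-116672997) with the summit 18 bp upstream of the start. *EGFR*, *INSR* and *IGF1R*, receptor tyrosine kinases for epidermal growth factor, insulin and insulin-like growth factor and named after their values were seen, had 45.2, 44.8 and 44.0, below the middle of the list.

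Among ligands, 11 of 37 growth factors and cytokines (29.7%, 17.5 to 45.8) were gained promoters. Only 1, *TNFSF13*, was a gained flank, a class it kept under 3 of 10 alternatives. The share with MP2_NTC-only regions and no MP2_HDAC1_OE peak was 16.2%. *LIF*, an interleukin 6 family cytokine, had a signal of 61.2 (chr22:30237647-30238666) with an MP2_NTC peak 2094 bp away, and it lost its class under 3 of 9 alternatives. *BMP8B*, a bone morphogenetic protein, had 50.7, and *MDK*, the heparin-binding factor midkine, had 43.3. The median gained promoter among the ligands stood above 29.5% of the list and among the receptors above 45.1%, beside 50.02% over all gained promoter regions. Of 17 axon guidance genes with a region, 6 (35.3%, 17.3 to 58.7) were gained promoters and none was a gained flank. *EFNA4* had 66.9, *EFNB3*, another ephrin, had 53.3, and *SEMA6C*, a semaphorin, had 43.0. G protein-coupled receptors gave 9 of 40 (22.5%, 12.3 to 37.5), an interval that included the 12.7%, and the share was the same as their share with MP2_NTC-only regions and no MP2_HDAC1_OE peak. The strongest were *GPR61*, *GPR39* and *GPR3*, with signals of 69.0, 56.6 and 48.2, and the region of *GPR61* lay at its far end. Ion channels gave 12 of 66 (18.2%, 10.7 to 29.1), which also included it, against 16.7% in the other direction, with *ORAI2*, a calcium channel, at 56.7 and *KCNK5*, a potassium channel, at 54.5.

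Cadherins and protocadherins had the highest share, 22 of 30 (73.3%), but this rested on 3 regions. Of these, 2 lay at the common end of the protocadherin gamma genes and counted for 23 genes each, *PCDHGB7*, *PCDHGA2* and *PCDHGA7* included. The stronger (chr5:141514701-141515520) had a signal of 45.7, with its summit 2136 bp beyond the end of the cluster. When the gene start alone was used, the 3 named genes had no region at all. These protocadherins were therefore counted at their far end and not at their starts.

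Developmental transcription factors, which are often kept silent in differentiated cells, had 23 gained promoters among 79 genes with a region (29.1%, 20.3 to 39.9), 10 gained flanks (12.7%) and 7 (8.86%) with MP2_NTC-only regions and no MP2_HDAC1_OE peak. The region at *FOXC1* (chr6:1609099-1610120) had a signal of 59.1, and the nearest MP2_NTC peak was 635771 bp away. *HES1*, a target and repressor of the Notch pathway, had 51.9 in a region that the window of 1 kb outside did not reach, and *MSX1*, a homeobox gene, had 49.9 with no MP2_NTC peak within 316678 bp. *SOX9*, a factor of the pancreatic duct lineage, had 47.7 in a region of 2 peaks (chr17:72121155-72122204), with the nearest MP2_NTC peak at 271925 bp. The median gained promoter of the list stood above 30.9% of the peaks, so the group was large in number and low in signal. Among gained flanks, *IRX5* had 67.0 but kept its class under only 3 of 9 alternatives, and *KLF9* had 57.8. Zinc finger factors, the largest family, were near the background with 43 of 366 gained promoters (11.7%) and 23 gained flanks (6.28%). *ZNF184*, *ZNF316* and *ZNF416* led with signals of 107, 88.8 and 81.3. Basic leucine zipper factors gave 4 gained promoters of 33 (12.1%) and 7 gained flanks (21.2%), with *MAFK* at 66.5 and the flanks *JUNB* at 63.5 and *NFE2L1* at 60.6.

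Chromatin regulators had a gained promoter share at the background, 22 of 175 (12.6%), and 23 gained flanks (13.1%), while 7 had MP2_NTC-only regions and no MP2_HDAC1_OE peak. *SMARCC2*, a core subunit of the SWI/SNF remodelers, had a signal of 79.1. *PHF10*, a subunit of the same family of complexes, had 72.9, and *BRD7*, a bromodomain protein, had 65.1. The flanks were led by *PCGF1*, a Polycomb group protein, at 83.4 and by *NCOR1*, a corepressor that works with class I deacetylases among others, at 62.2. Both regions lay at the far end of their gene. Histone genes had 1 gained promoter among 61 with a region (1.64%, 0.290 to 8.72), *MACROH2A1*, a variant histone, with a signal of 71.9, and 12 gained flanks (19.7%, 11.6 to 31.3), led by *H2AC13* at 98.0 and *H3C4* at 55.8. Replication-dependent histone genes are short and lie close together, so neighbouring windows overlap.

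Among genes of the basic machinery, the intervals of RNA processing and cytosolic ribosomal proteins lay below the 12.7% over all genes, and those of mitochondrial ribosomal proteins, the respiratory chain and translation included it. RNA processing gave 7 of 166 (4.22%, 2.06 to 8.45) but 26 gained flanks (15.7%, 10.9 to 21.96). *LSM1* had 107, *RBM6*, a splicing factor, 68.4 and *LSM6*, an RNA-binding ring subunit, 63.6, and the flanks were led by *PRPF4*, a spliceosome subunit, at 77.8 and *DDX52*, an RNA helicase, at 72.8. The shared region of *DDX52* lay 33540 bp away, at the other end of the gene. Cytosolic ribosomal proteins gave 3 of 82 (3.66%, 1.25 to 10.2), namely *RPS13* at 72.2, *RPS9* at 69.7 and *RPL15* at 37.9, and 9 gained flanks, among them *RPLP0* at 62.1 and *RPL22* at 60.5. Mitochondrial ribosomal proteins gave 5 of 75 (6.67%, 2.88 to 14.7), led by *MRPL2*, *MRPL17* at 58.1 and *MRPS18A* at 50.8, with 3 gained flanks, *MRPS26* at 56.5 and *MRPL32* at 55.8 the strongest. Respiratory chain genes gave 6 of 95 (6.32%, 2.93 to 13.1), led by *NDUFAB1* at 76.9 and *UQCRC1* at 75.9, and 12 gained flanks (12.6%), led by *ATP5F1D* at 86.4 and *SDHAF3* at 75.8. Translation factors and transfer RNA synthetases gave 8 gained promoters and 8 gained flanks of 93 (8.60% each, 4.42 to 16.1), with *CARS1*, *MARS1* and *EIF2B3* at 59.5, 56.2 and 53.2, of which *CARS1* lost its class under 2 of 10 alternatives. Most genes of these groups had shared regions and no MP2_HDAC1_OE-only region, for instance 58 of the 82 cytosolic ribosomal genes.

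The intervals of cell division, repair, apoptosis and ubiquitin genes all included the 12.7% over all genes. Cell cycle and mitosis genes gave 16 of 172 (9.30%, 5.81 to 14.6), with *KIF2C*, a microtubule-depolymerising kinesin, at 88.1, *SKA1*, a kinetochore subunit, at 70.7 and *NEK6*, a mitotic kinase, at 67.3, and 14 gained flanks (8.14%), led by *ANAPC13* at 92.1 and *CDC34* at 80.7. DNA repair genes gave 7 of 107 (6.54%, 3.20 to 12.9), with *FANCB* and *FANCI*, of the Fanconi anaemia pathway, at 87.9 and 58.7 and *NTHL1*, a base excision glycosylase, at 51.1, and 8 gained flanks, with *POLD4* at 67.1 and *DCLRE1B* at 58.1. Apoptosis genes gave 3 of 38 (7.89%, 2.72 to 20.8), *BBC3*, the p53 target PUMA, at 70.9, *DFFB*, a nuclease, at 56.0 and *BIRC3*, an inhibitor of apoptosis, at 40.9, and 3 gained flanks, with *CASP9*, an initiator caspase, at 85.8 and *TNFRSF10A*, a death receptor, at 46.0. Ubiquitin and proteasome genes gave 31 of 321 (9.66%, 6.89 to 13.4), led by *CUL7*, *CUL9* at 72.8 and *UBE2V1* at 71.8, and 24 gained flanks (7.48%), with *UBE2M* at 64.9 and *OTUD7B* at 64.8.

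Lipid metabolism gave 23 gained promoters of 96 genes with a region (95% Wilson interval 16.5 to 33.4%) and 11 gained flanks (11.5%), against 11 genes (11.5%) with MP2_NTC-only regions and no MP2_HDAC1_OE peak. *APOF*, an apolipoprotein, had 63.2 in a region that also counted for *STAT2*. *LPIN2*, a phosphatidate phosphatase, had 58.2, and *SREBF2*, the master factor of cholesterol synthesis and named after its values were seen, had 51.6. The flanks included *PNPLA6*, a phospholipase, at 67.5 in a region shared with *MCOLN1*, a lysosomal channel. Solute carriers gave 28 of 175 (16.0%), led by *SLC2A11*, a sugar transporter, at 76.7, *SLC67A2* at 71.2 and *SLC27A5*, a bile acid and fatty acid ligase, at 68.0 in a region beyond the window of 1 kb, and 11 gained flanks (6.29%), with *SLC35G6* at 62.0 and *SLC26A11* at 56.8. The shared region of *SLC26A11* lay 33350 bp from the region given, at the other end of the gene. ABC transporters gave 2 of 21 (9.52%), *ABCB6* at 46.7 and *ABCA7* at 44.4, and 1 gained flank, *ABCF3* at 33.3. The region of *ABCA7* lay at its far end, and the gene had none at its start. Hypoxia and glycolysis genes gave 4 of 35 (11.4%), with *BNIP3L*, a mitophagy receptor, at 50.1, *LDHA* at 49.0 and *ADM*, adrenomedullin, at 42.8 (no region in the window of 1 kb outside), and 6 gained flanks (17.1%), with *GPI* at 71.1 and *GAPDH* at 55.9. The region of *GPI* had its summit 45 bp from the gene start, and its shared region lay 43927 bp away at the other end. *GPI* became a gained promoter in the window of 1 kb outside and at the gene start alone. Sugar chain synthesis gave 9 of 76 (11.8%), with *NDST2* at 61.4, *PIGZ* at 56.0 and *NDST1* at 49.2, and 5 gained flanks (6.58%), with *ALG3* at 66.0 and *PIGW* at 57.2.

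Interferon and antigen presentation genes gave 9 gained promoters of 46 (19.6%, 10.7 to 33.2) and 3 gained flanks (6.52%), with 6 genes (13.0%) in the opposite direction. *IFIT1*, whose printed start holds 2 matches to the interferon-stimulated element, had 65.4 (chr10:89391916-89392735), with the nearest MP2_NTC peak at 59430 bp. *STAT2*, which is part of the factor that binds this element together with *IRF9*, had 63.2, and *IRF9* itself was a gained flank at 35.8. The region of *IRF9* lay 22 bp from its shared region, and the gene had shared regions alone when gaps of up to 500 bp were merged. The strongest flank was at *TAPBP*, a chaperone of peptide loading, with 86.2 in a region at its far end. Lower values were found at *OAS2* and *NLRC5*, named after their values were seen, with 36.2 and 34.5, so the group ran from above 77.8% to well below the middle of the list, with a median above 38.5%.

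Small GTPases, the family that the study follows through RAS signalling, gave 7 gained promoters of 87 with a region (8.05%, 3.95 to 15.7), equal to the share in the opposite direction, and 11 gained flanks (12.6%). *RAB10*, a GTPase of exocytosis, had 58.9 in 2 regions, *RASL11A* had 49.2, and *RAB5A*, of early endosomes, had 47.7. *RAN*, the GTPase of nuclear transport, was the strongest flank at 88.1 and *ARL2* followed at 70.6. Their regulators gave 21 of 130 (16.2%) and 8 gained flanks (6.15%), with *RGL2*, an exchange factor for RAL proteins, at 70.2 in a region at its far end that 4 of 10 alternatives left out or reclassed, *GMIP*, a GTPase-activating protein, at 64.1, *ARHGEF12*, an exchange factor, at 60.7 and the flanks *TRIO* at 78.8 and *ARHGAP12* at 55.9. MAPK and PI3K signalling gave 12 of 89 (13.5%), against 16 (18.0%) in the opposite direction, with the kinases *MAP3K6* and *MAP3K1* at 62.2 and 57.1, *SPRY1*, an inhibitor of the pathway, at 56.8, and the flanks *PIK3CA* and *MAP3K12* at 92.3 and 70.3. Vesicle traffic gave 23 of 194 (11.9%), led by *CLTC*, *RABEP2* and *VPS50* at 71.9, and 24 gained flanks (12.4%), with *SEC14L1* at 84.5 and *COG8* at 71.9. Cytoskeleton and motor genes gave 18 of 119 (15.1%), led by *CAPZA2*, an actin-capping subunit, at 88.4, *ACTR5*, an actin-related subunit of the INO80 remodeler, at 86.5 and *ARPC3*, a subunit of the actin-nucleating ARP2/3 complex, at 85.2, and 12 gained flanks (10.1%), with *TMSB4X* at 76.0 and *WASF1* at 72.8.

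Of 202 proteases of invasion and their inhibitors, 42 had a region in either line. They gave 7 gained promoters and 7 gained flanks (16.7% each, 8.32 to 30.6), an interval that included the 12.7% and the 9.71% over all genes. *PLAUR* had 68.2 and *PLAU*, the urokinase it binds, had 60.3 (chr10:73909262-73910290), so ligand and receptor were both gained promoters, and *MMP15*, a membrane-bound metalloprotease, had 49.8. The flanks were led by *ADAM15*, a metalloprotease, at 66.9, in the region that gave *EFNA4* its gained promoter, and by *DPP9*, a dipeptidyl peptidase, at 63.9. Of 56 genes of epithelial-mesenchymal transition, 14 had a region, with 1 gained promoter, *COL1A2*, and 5 gained flanks (35.7%, 16.3 to 61.2), among them *ITGB1*, an integrin subunit, at 59.7. Extracellular matrix and integrin genes gave 3 gained promoters and 3 gained flanks of 26 (11.5% each), with *COL11A2* at 54.0 and *ITGB4* at 46.3 among the former and *ITGA10* at 16.5 among the latter. The region of *COL11A2* lay at its far end, and the gene had no region when the gene start alone was used. The strongest region of *ITGB4*, whose strand was not known, lay wholly beyond an end of the gene. At *ITGA10* the region lay at the start, 16878 bp from the shared region at the other end.

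**Figure D4:**
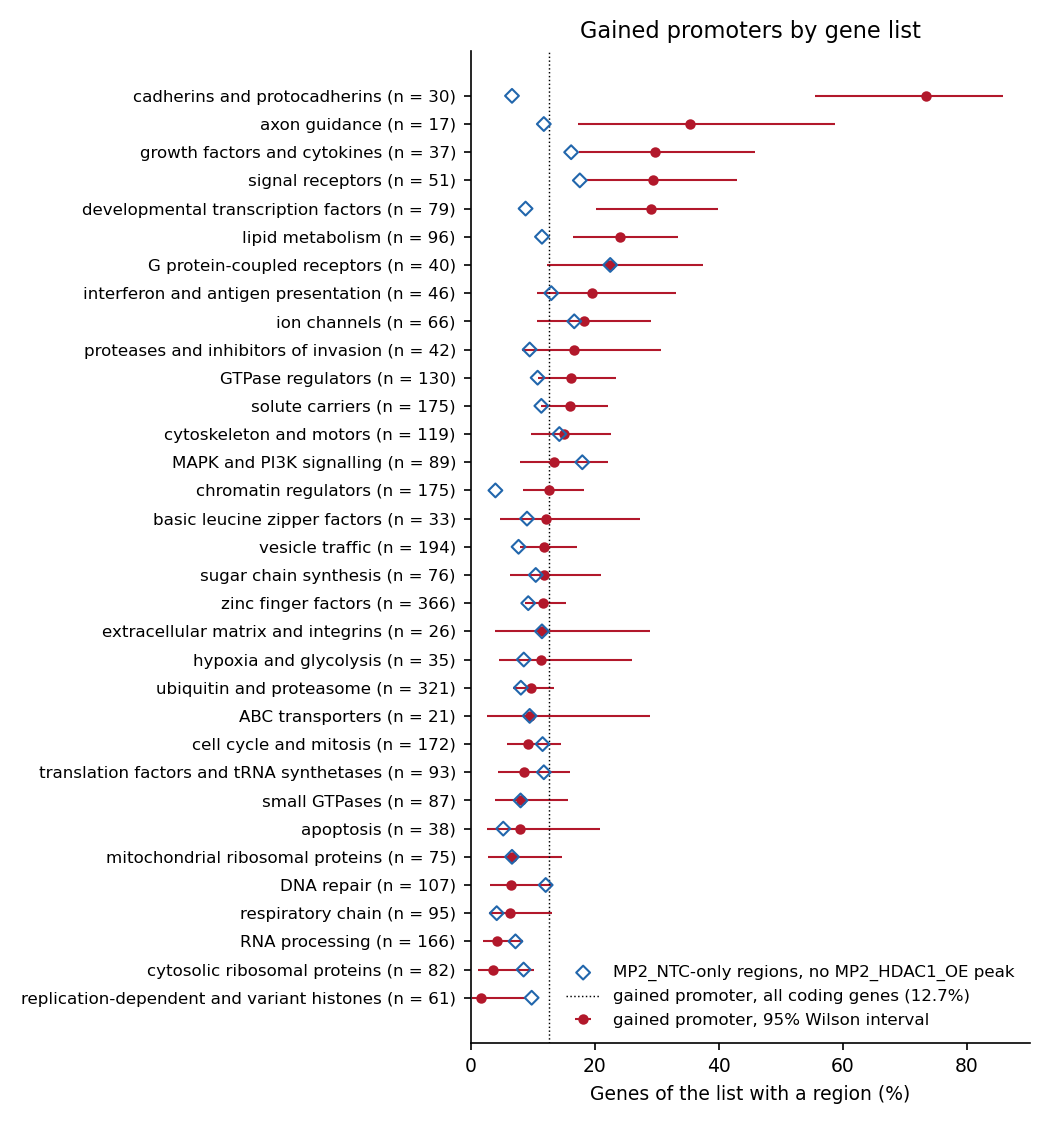
Filled points give the share (in %) of a list's genes with a region that were gained promoters, with 95% Wilson intervals, open diamonds the share with MP2_NTC-only regions and no MP2_HDAC1_OE peak, and the dotted line the 12.7% over all coding genes, for lists with at least 15 genes with a region. Cadherins stand at 73.3% through 3 regions, and receptors, ligands and developmental factors stand near 29%.

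A few genes were picked singly, with earlier results of these data known, and their spread over the classes is not a result. *NT5E*, the ectonucleotidase CD73, was a gained promoter with a signal of 65.4 in a region of 3 peaks (chr6:85449422-85450855), and its nearest MP2_NTC peak was 142508 bp away. *PLAU*, *SOX9*, *COL1A2*, *RALB* and *SEMA3C* were gained promoters too. *COL1A2*, a chain of type I collagen, stood above 41.0% of the list with no MP2_NTC peak within 113961 bp. *RALB*, a RAS-like GTPase, had 39.2, above 35.0% of the list, with the summit 1653 bp upstream of its start, and it had no region in the narrower window of 1 kb outside. *SEMA3C*, a secreted semaphorin, had 38.4, with an MP2_NTC peak 2256 bp away. *RAP2B*, a RAS-related GTPase, was a gained flank with 2 regions, of signals 46.1 and 27.7, that lay 2136 bp or less from a shared region ranked above 81.7% of MP2_HDAC1_OE and 78.9% of MP2_NTC. *CD44* and *ZEB1*, a stem cell surface marker and a repressor of epithelial genes, had a shared region each and none only in MP2_HDAC1_OE. That of *ZEB1* ranked above 58.9% of MP2_HDAC1_OE and 30.8% of MP2_NTC, and that of *CD44* above 66.9% and 70.9%. *RAC1*, *RAB27B* and *ARHGAP5*, which the study also discusses and which were added after the data were seen, had no region only in MP2_HDAC1_OE either. The study reports higher H3K27ac peaks at the promoters of *RAP2B* and *ARHGAP5* with *HDAC1* overexpression. Peak height is another measure than the presence of a region in 1 list.

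The letters at the gene start differed little between the classes of genes with a region. The ratio of observed to expected CG dinucleotides had a median of 0.838 at 972 gained promoter genes, 0.867 at 795 gained flank genes, 0.858 at 5289 genes with shared regions and no MP2_HDAC1_OE-only region and 0.850 at 827 genes with MP2_NTC-only regions alone, against 0.491 at 7754 coding genes with no region. It was above 0.6 in 83.0% of gained promoters and 88.0% of the shared class. The GC box was found on either strand in 72.2% of gained promoters, 75.2% of gained flanks and 70.3% of the shared class. Its share was 58.5% over all 15842 coding genes with a RefSeq start. TATAAA or its complement was found in 3.70%, 6.67% and 5.28%, against 9.63% of these coding genes. The CCAAT box was found in 33.7%, 38.1% and 36.7%, against 36.4%, and the AP-1 motif in 4.84%, 4.15% and 3.91%, against 5.75%. The interferon-stimulated element was found on either strand in 34 gained promoters (3.50%), 2.64% of gained flanks, 2.53% of the shared class and 3.18% of these coding genes. This last motif was added after the data were seen. Gained promoters were thus of the CG-rich kind, like other starts with H3K27ac in these lines.

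Chromosomes differed in the share of their regions at coding genes that were only in MP2_HDAC1_OE. It was highest on chromosome 11 (28.5%, 95% Wilson interval 24.8 to 32.5, 150 of 527), 12 (25.7%, 22.1 to 29.7) and 15 (25.2%, 20.1 to 31.1) and lowest on chromosomes 5 (14.5%, 11.7 to 17.9) and 14 (15.5%, 12.1 to 19.6). The MP2_NTC-only share on these was 16.9%, 16.2%, 23.9%, 13.1% and 19.7%, beside 1747 of 10288 regions over all chromosomes. Neighbouring regions were also counted in runs with no shared or MP2_NTC-only region at a coding gene between them. Of the runs, 1308 held 1 region, 265 held 2, 48 held 3, 21 held 4 and 2 held 5. Regions only in MP2_HDAC1_OE made up 20.2% of those at coding genes, so some neighbours fall together without any clustering. Clustering was not tested, and runs of MP2_NTC-only regions were not counted. The runs of 5 spanned chr15:41332783-41417971 at *NUSAP1*, a spindle protein, *OIP5*, *NDUFAF1* and *RTF1*, a subunit of the PAF1 elongation complex, and chr19:1489148-1513909 at *PCSK4*, *REEP6* and *ADAMTSL5*. These genes were named after their values were seen.

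**Figure D5:**
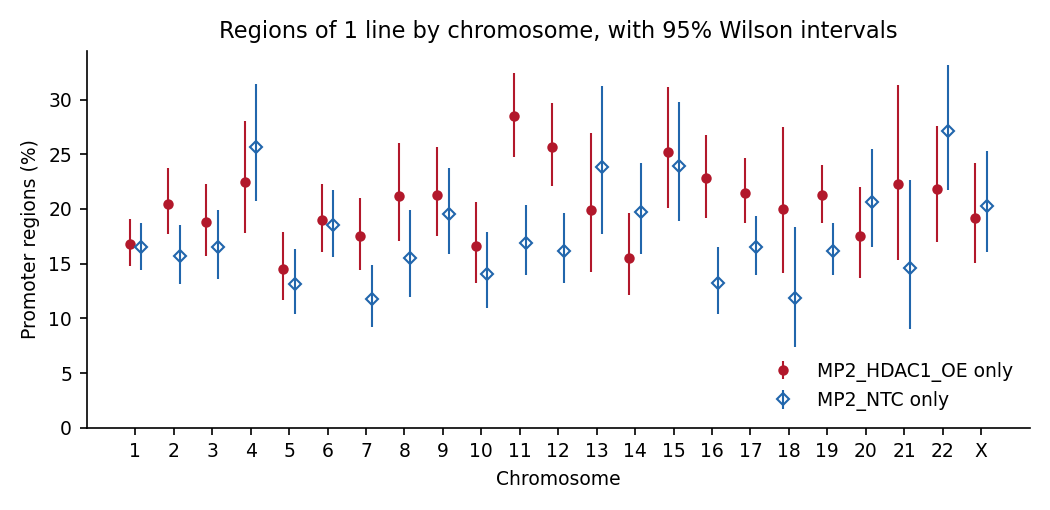
Points give the share (in %) of regions at coding genes on each chromosome with peaks only in MP2_HDAC1_OE (filled) or only in MP2_NTC (open), with 95% Wilson intervals. The MP2_HDAC1_OE-only share stands highest on chromosome 11 at 28.5% and lowest on chromosome 5 at 14.5%.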

How the data were processed

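H3K27ac ChIP-sequencing of 2 samples and 2 control samples per line was processed by the authors with the ENCODE pipeline, and 1 list of reproducible peaks (IDR) per line was deposited. The labels' processing notes name hg38, BWA 0.7.12, Picard 1.88 and SAMtools. The peak caller is not given in the sources used here. In the deposited lists each peak carries a signal above 0 whose scaling between lists is unknown, so signals were ranked within a list. The deposited score runs from 540 to 1000 and was used only to describe peaks. The lists hold no read counts, so depth is unknown.

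Windows came from RefSeq (GRCh38.p14), where strand was known for 15842 coding genes and not for 4191, so either gene end counted. Members and gene lists were chosen with earlier results of these data known. Genes whose symbols matched a list by pattern but not by function (the RAB11FIP, RAB3GAP, CDC42, APOBEC, IRF2BP and EEF1AKMT genes) were taken out after values were seen. Others may remain, and *ACTR5*, a remodeler subunit, stayed in the cytoskeleton list. Named genes were the 12 gained promoters and 8 gained flanks with the highest signal, up to 3 and 2 of each list, the 5 with most regions, the 5 with the longest cover, those at the limits of the rule and a few picked singly, *NT5E* and *RALB* among them. Promoters printed were that of *ZNF184*, among the highest by signal, and the highest of 5 lists. Genes at the limits and of the lists are described in part, and some are not reported here. Scripts ran on Python 3.11.15 with pandas 2.3.3, numpy 2.4.6, matplotlib 3.10.9 and scipy 1.17.1, and the classes were tested on simulated data.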

Additional observations from a re-analysis of the deposited data

How the results depend on the processing

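No paired analysis was possible because the deposited peaks are pooled over the samples of a line, and no sample could be left out. The number of MP2_HDAC1_OE-only regions at coding genes stayed within 1.5 times of 2076 under 9 of 10 alternatives and was 1226 when gaps of up to 1000 bp were merged. Gained promoter genes numbered between 959, at the gene start alone, and 1329, with the highest 75% of peaks in each list, under 11 alternatives. Gained flank genes numbered 403 and 262 when gaps of up to 500 and 1000 bp were merged and 554 at the gene start alone, where genes without a known strand drop out. Under the 9 alternatives that keep both gene ends, 1029 gained promoter genes (83.2%) and 105 gained flank genes (11.1%) kept their class throughout. Of the named genes, 96 of 114 gained promoters and 4 of 71 gained flanks kept theirs under each alternative that could be computed for them.

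The median rank of the regions (above 49.2% of the list, 95% interval 47.5 to 50.7) was 55.9% with the highest 75% of peaks in each list, 55.2% with the highest 75% of MP2_HDAC1_OE peaks against all MP2_NTC peaks, 51.0% with as many MP2_HDAC1_OE peaks as MP2_NTC peaks and 51.0% at the gene start alone. The first 3 leave out weak peaks by construction. The median distance of the summit to a gene end (373 bp, 351 to 391) was 332 bp with gaps of up to 1000 bp merged, 346.5 and 344.5 bp with the highest 75% of peaks in each list and of MP2_HDAC1_OE alone, 406 and 346 bp with windows of 2 kb inside and of 1 kb outside, and 343 bp with the summit required in the window. Wider windows admit farther summits by construction. Read depth, which the lists do not hold, limits how a missing MP2_NTC peak can be read.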
